A study of Danio rerio with 10 samples.

Results

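The margin mesoderm of the early zebrafish (Danio rerio) embryo was compared between 50% and 30% epiboly. It was taken as all cells that the deposited annotation names Muscle Blood, Ventral Margin or Notochord, and their UMI (unique molecular identifier) counts were summed per library. These names covered 1856 of the 6371 cells of the 4 epiboly libraries, out of 8226 cells in the whole series. The remaining 1855 cells, of the dome stage, were not analysed here. In all groups the embryos were wild type (AB/TL per the labels) and had received, as zygotes, an injection of 4sUTP (20 mM), a nucleotide that marks newly made RNA, and of reporter RNAs for GFP, RFP and 1 of 2 forms of mCherry. Single cells were captured by Drop-seq, and iodoacetamide (IAA, 10 mM) turned the incorporated label into T-to-C changes in the reads. Each stage had 2 IAA libraries of pooled embryos, replicates A and B. Epiboly embryos of one replicate were deyolked by hand and those of the other by shaking, per the methods of the study, which do not say which letter is which. Libraries of the same letter share that method if the letters follow the replicates, so changes are also given within each letter and where a fit with the letter as a block alters a call. Libraries without IAA were not analysed here.

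At these stages the blastoderm spreads over the yolk, and the cells at its margin begin to form mesoderm and endoderm. Nodal, FGF, Wnt and BMP signals at the margin switch on T-box genes such as tbxta and tbx16. The dorsal margin gives the axial mesoderm of the notochord, and the lateral and ventral margin gives somites, blood, vessels and tail. Cells turn inward and migrate as gastrulation starts.

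The 4 sums of margin mesoderm were of very unequal depth. The 30% epiboly libraries held 644 cells with 1885817 UMIs (replicate A) and 158 cells with 732837 UMIs (replicate B). The 50% epiboly libraries held 967 cells with 2801377 UMIs (A) and 87 cells with 199376 UMIs (B). In the smallest library 1 UMI was worth 5.25 CPM (counts scaled to a common library size, with TMM factors in all levels of total counts below), against 0.385 in the largest. No cell barcode was shared between the epiboly libraries. The deposited names were checked against marker lists, as a description only, since the study clustered the cells on their expression and named the clusters by markers that include noto, tbxta, eve1, chrd, gsc and osr1. By the mean over libraries, 12 of 12 Muscle Blood markers and 9 of 10 Notochord markers were highest in their own type among the 3. For Ventral Margin this held for 6 of 11, and tbxta, vent, tbx16, wnt11f2 and hes6 were highest in Muscle Blood. Among all annotated types, 4 of 12, 5 of 11 and 3 of 10 were highest in their own type. The prechordal plate, a neighbouring dorsal type, was highest for 5 Muscle Blood markers (osr1, pcdh8, mixl1, fscn1a and lhx1a) and for 5 Notochord markers (chrd, foxa2, foxa3, shha and gsc). The blood and vessel genes gata1a and fli1a had 0 UMIs in all 4 sums, and tal1, npas4l, etv2 and hand2 had at most 2 in any, so these genes were at or near 0 in the type named Muscle Blood. In summed counts, fewer cells of a type and less RNA per cell cannot be told apart.

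The first question was whether the margin mesoderm made up a larger part of the cells and held more new RNA at 50% epiboly. It accounted for 26.6% and 25.0% of the cells at 30% epiboly (replicates A and B) and for 31.5% and 34.7% at 50% epiboly. The stages did not overlap. The difference was 7.28 percentage points (4.91 within A, 9.66 within B), and the two-sided exact permutation test gave p = 0.333, the smallest that 2 libraries against 2 allow. The study annotated its clusters by stage as well as by markers, and the types include unspecified cells named for 30% epiboly. The shares are thus not independent of stage by the way cells were named. Ventral Margin cells accounted for 13.7% and 14.4% of cells at 30% and for 16.2% and 19.5% at 50%, again without overlap. Muscle Blood cells made up 3.22% and 4.91% at 30% and 9.06% and 4.78% at 50%, and Notochord cells 9.71% and 5.70%, then 6.26% and 10.4%. In both of these types the stages overlapped. The mix of types therefore differed between the libraries of a stage. Muscle Blood was 12.11% and 19.6% of the mesoderm at 30%, and 28.7% and 13.8% at 50%.

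The labelled fraction is the share of UMIs that the authors' estimate assigns to new, zygotic RNA. In the margin mesoderm it was 38.9% and 33.7% at 30% epiboly, and 51.0% and 34.7% at 50% epiboly. It was higher at 50% within each letter, but 30% replicate A lay above 50% replicate B, so the stages overlapped. These values cover genes with 3 or more UMIs in a cell. With 1 or more UMIs they were 32.4% and 31.2% at 30%, and 42.8% and 32.8% at 50%. With exactly 3 UMIs they were 31.1% and 29.6%, and 41.4% and 32.5%. At these 2 limits the stages did not overlap, by a narrow gap to 50% replicate B. With 3 or more UMIs the mean difference of 6.59 points (12.12 within A, 1.06 within B) had p = 0.667 in the exact permutation test. It was -1.56 points without 50% replicate A. At that limit Muscle Blood was the one type of the 3 without overlap, at 40.5% and 34.7% against 52.0% and 47.6% (difference 12.2 points, exact permutation p = 0.333). Its value in 50% replicate B came from 12 cells and 17450 UMIs, against 278 cells and 513430 UMIs in 50% replicate A. Ventral Margin had 40.9% and 34.8% against 50.9% and 35.2%, and Notochord 36.2% and 30.0% against 49.6% and 27.7%. With exactly 3 UMIs the stages of Ventral Margin did not overlap (32.68% and 30.53% against 41.22% and 32.75%), but with 1 or more UMIs they did. The other cells of the same libraries stood at 38.0%, 31.6%, 51.3% and 34.9%. The mesoderm minus the other cells was 1.52 points on average at 30% epiboly and -0.22 at 50%, and the difference of -1.74 points had an exact permutation p of 0.333. Pseudotime is a score by which the authors order cells along development. It was computed from the total expression of the same cells, so it is not independent of the other values given here. Its median in the mesoderm was 319 and 324 at 30% and 334 and 328 at 50%, and in each of the 3 types the stages did not overlap either, with differences from 7.48 to 9.47 against 11.1 in the other cells.

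**Figure D1:**
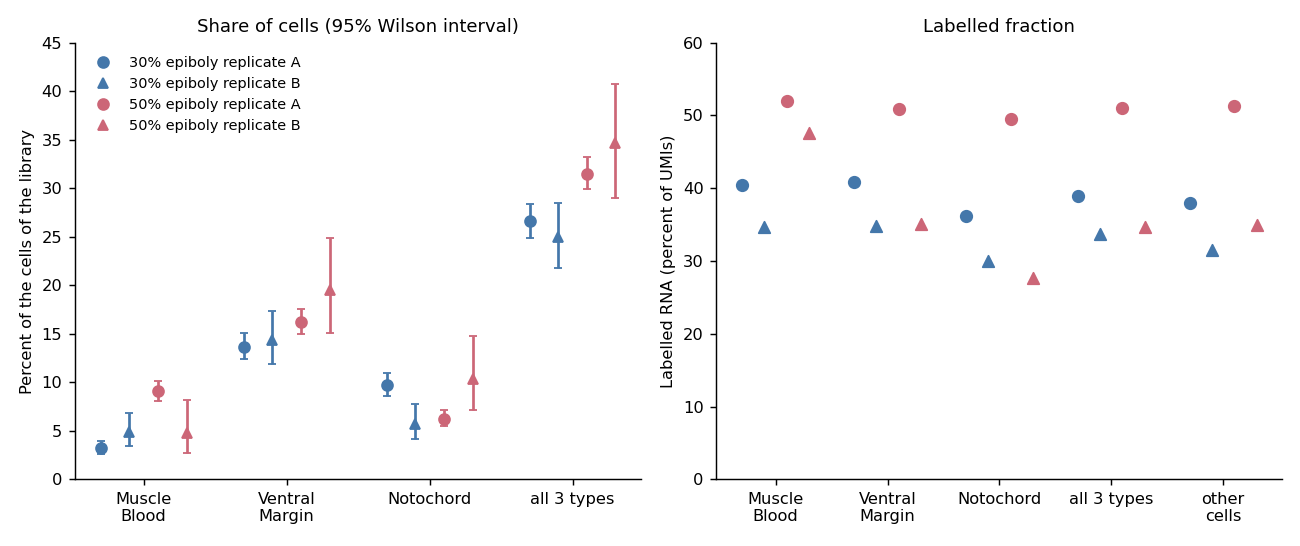
Left, percent of each library's cells in the 3 types and in all 3 together, with 95% Wilson intervals that cover counting error only. Right, labelled RNA as percent of UMIs in the same cells and in all other cells. Each point is 1 library. The share of all 3 types was 25.0% to 26.6% at 30% and 31.5% to 34.7% at 50% epiboly. The labelled percent, for genes with 3 or more UMIs in a cell, lay between the 30% libraries in 50% replicate B (34.7%).

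The next comparison asked which genes differ in total counts between the stages. Of 6630 genes tested in the margin mesoderm, 0 passed a false discovery rate of 5% by edgeR's quasi-likelihood test (0.0% of genes), and 338 had an unadjusted p below 0.05 (3.09% of genes higher and 2.01% lower at 50%). DESeq2 also called 0, with 127 below an unadjusted 0.05, and edgeR called 1, mespaa, when letter A or B entered the fit as a block. The count depended on single libraries. Without 50% replicate A, 84 genes were called, and without 50% replicate B, 20 were. Without 30% replicate A or B the counts were 1 and 2. In each of these fits the library left alone in its stage was assumed to vary like the pair. Over all 6630 genes, 17.7% were higher at 50% without overlap and 20.0% were lower, against 10.5% and 30.30% without TMM scaling. Of the 1327 lower genes, 1164 stayed without overlap when libraries with 0 UMIs were set to a floor of 3 UMIs. Of all genes, 54.5% had the same sign of change within A as within B (Pearson r = 0.14 across genes, which are not independent replicates). The median log2 change of all genes was -0.01 with TMM scaling and -0.20 without it.

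The genes named next are the 10 higher and 10 lower genes of lowest p among those whose stages did not overlap, and none of them passed the threshold (edgeR, adjusted p = 0.891 for each). The 10 higher genes included genes of somite formation, of cell migration and of Wnt reception. The Frizzled gene fzd7a, a receptor for Wnt ligands, had 35.9, 30.0, 108 and 126 CPM in 30% A, 30% B, 50% A and 50% B, the order used from here on. Its log2 change was 1.78 ± 0.40 (SE), 1.58 within A and 2.07 within B. The bHLH gene mespaa, active in the forming presomitic mesoderm, had 3.44, 18.2, 49.0 and 110.2 CPM (log2 change 2.96 ± 0.69), from 7, 14, 127 and 21 UMIs. Every 50% library of mespaa lay above both 30% libraries, which themselves differed. The bHLH gene msgn1, needed for presomitic mesoderm to mature, had 10.8, 36.5, 87.1 and 99.7 CPM (log2 change 2.08 ± 0.53).

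The gene ripply1, a repressor that ends presomitic gene activity in forming somites, had 5.90, 2.61, 27.8 and 31.5 CPM (2.57 ± 0.58), from 12, 2, 72 and 6 UMIs. Among all annotated types, by the mean over libraries without TMM scaling, ripply1 was highest in the prechordal plate (764 CPM, against 79.4 in Muscle Blood). The chemokine gene cxcl12b had 7.37, 10.4, 44.3 and 31.5 CPM (2.23 ± 0.53). The receptor gene aplnra, whose ligand Apela promotes the internalization of mesendoderm cells, had 27.5, 39.1, 97.5 and 115 CPM (1.68 ± 0.42). For these 3 genes the stages were apart by more than the letters differed. The other 4 higher genes serve ribosomes, iron storage and the heat shock response. The ribosomal protein gene rpl7a had 601, 563, 1292 and 1469 CPM (1.24 ± 0.30), and rps27l, of a ribosomal protein family, had 31.9, 40.4, 98.3 and 110.2 CPM. The ferritin-like gene fthl27 had 61.4, 54.7, 234 and 94.4 CPM. The small heat shock gene hspb1 had 2547, 1623, 3916 and 5494 CPM (1.17 ± 0.32). Of the 10, fzd7a, mespaa, msgn1 and rpl7a were called both when 50% replicate A and when 50% replicate B was left out, and mespaa also without 30% replicate B, with no filter on low counts and with the letter as a block (3.18, edgeR adjusted p = 0.00902).

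Most of the 10 lower genes were of low level. The lactate transporter gene slc16a3 had 456, 355, 216 and 152 CPM (log2 change -1.10 ± 0.35, -1.08 within A and -1.20 within B). The gene map2k2a, of a kinase of the MAP kinase pathway, had 95.3, 71.7, 38.5 and 26.2 CPM (-1.26 ± 0.43). The gene pho had 295, 539.7, 203 and 168 CPM (-1.14 ± 0.37). For each of the 3, both 50% libraries lay below both 30% libraries. For ppp1r13bb, of a family that binds p53, the levels were 47.2, 63.9, 15.0 and 0 CPM, from 96, 49, 39 and 0 UMIs, and 0 UMIs in 50% replicate B allow up to 15.7 CPM. The others were wipf2a, fbxo45, ap5s1, si.dkey.172h23.2, si.ch211.212k18.7 and 1 gene with a zgc name, with at most 1 UMI each in that library. For wipf2a, fbxo45 and ap5s1 the gap between stages thus rests on 1 UMI there, worth 5.25 CPM, with its own counting error. For si.dkey.172h23.2, si.ch211.212k18.7 and the zgc gene that library had 0 UMIs, and the same floor reaches their 30% levels, so at this depth their stages are not shown to be apart. The labelled fraction of slc16a3 was 2.1%, 1.7%, 0.0% and 0.0%, from 555, 187, 188 and 4 UMIs, and that of pho 9.7%, 4.8%, 12.8% and 0.0%, from 240, 333, 162 and 9 UMIs. By contrast, it was 89.7%, 91.1%, 91.7% and 93.7% for hspb1 and 62.8%, 68.9%, 74.8% and 59.7% for rpl7a.

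**Figure D2:**
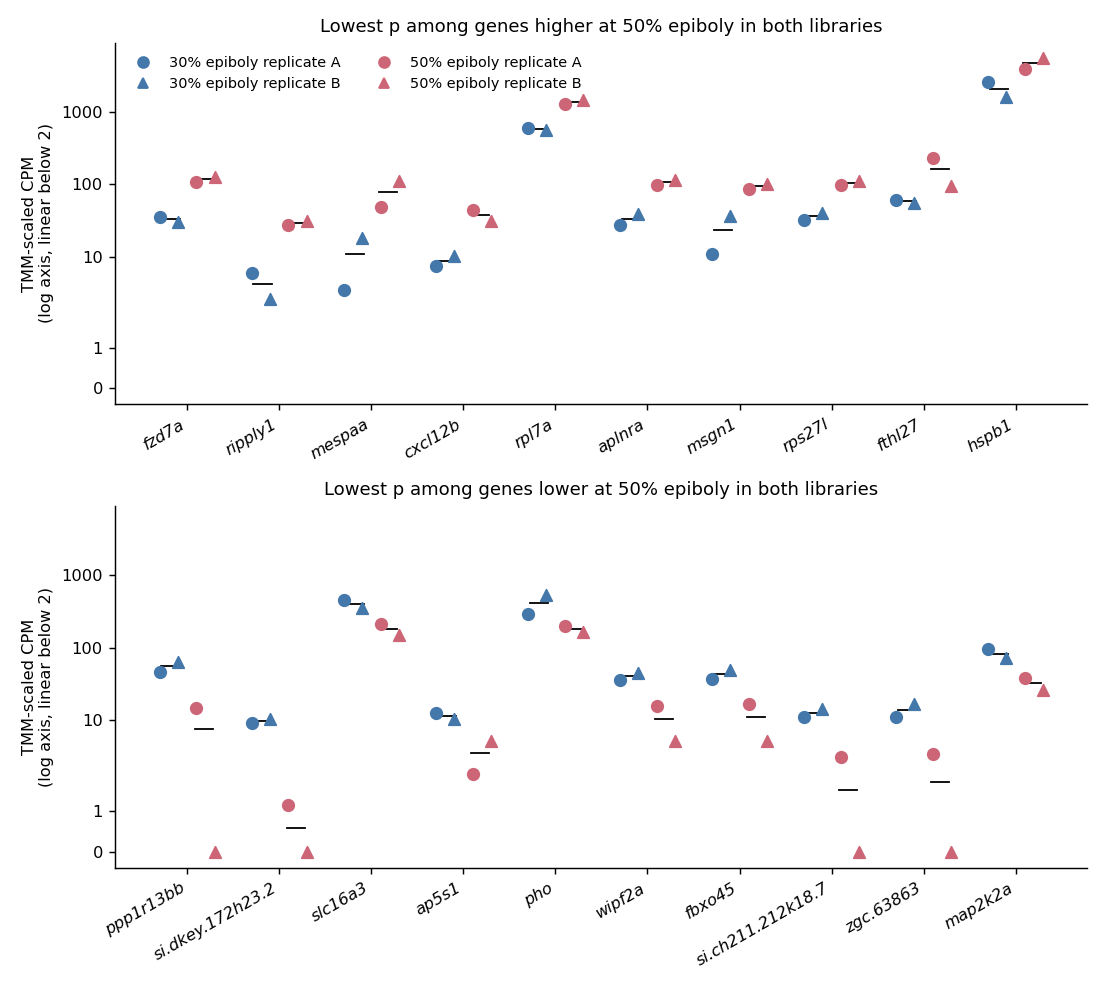
Levels in TMM-scaled CPM (log axis, linear below 2) of the 10 higher and the 10 lower genes of lowest p whose stages did not overlap. Each point is 1 library and each bar the mean of the 2 libraries of a stage; fzd7a stood at 30.0 to 35.9 CPM at 30% and at 108 to 126 CPM at 50% epiboly, and none of the genes passed 5% false discovery.

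Gene groups of the margin were then described by their members. No member of any group passed the threshold in total counts, so the counts that follow are of tested genes whose stages did not overlap, to be read against 17.7% (higher) and 20.0% (lower) of all genes, and counts without TMM scaling against 10.5% and 30.30%. Of 10 margin transcription factors (of 14 listed), 4 were higher and 1 was lower, with a median log2 change of 0.21 (3 and 1 without TMM scaling, median 0.03). The T-box gene tbxta, which marks the whole margin, had 1510.0, 1791, 2008 and 2288 CPM (0.38 ± 0.29). Its relative tbx16 had 1954, 1195, 2445 and 1511 CPM, with overlap. The bHLH gene hes6 had 593, 579, 1128 and 1034 CPM (0.89 ± 0.30). The homeobox gene mixl1, an early Nodal target in mesendoderm, had 492, 574, 405 and 168 CPM (-0.83 ± 0.39). Both 50% libraries thus lay above the 30% libraries for tbxta and hes6, and below them for mixl1. For tbxta the stages overlapped without TMM scaling. The T-box genes tbxtb, tbx16l, tbx6 and eomesa were below the filter on low counts.

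In the paraxial and somite group, 5 of 12 tested genes (of 18 listed) were higher and 0 were lower, with a median of 0.41 (4 and 0 without TMM scaling). The 5 were msgn1, mespaa, ripply1, snai1a and irx7. Among all annotated types ripply1 was highest in the prechordal plate and snai1a in endoderm. The snail-type repressor gene snai1a, which acts on cadherins in migrating cells, had 168, 92.5, 306 and 209.9 CPM (1.00 ± 0.38). The protocadherin gene pcdh8 had 88.9, 97.8, 172 and 47.2 CPM, and the actin-bundling gene fscn1a had 1241, 1029.8, 1513 and 918 CPM, both with overlap. The muscle regulators myf5 and myod1 had at most 1 UMI in any library. In the lateral, blood and vessel group, 7 of 16 listed genes were tested (median 0.41), and aplnra alone was without overlap. The second apelin receptor gene, aplnrb, had 70.3, 70.4, 176 and 42.0 CPM, so that 50% replicates A and B lay on opposite sides of the 30% libraries. The zinc finger gene osr1, of early mesoderm, had 108, 128, 174 and 110.2 CPM, and drll.3 had 119, 177, 139.9 and 47.2 CPM.

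Of 12 tested notochord and dorsal genes, 0 were higher and 1, foxd3, was lower. Their median was 0.13, and -0.06 without TMM scaling, where 0 were higher and 3 lower. The notochord homeobox gene noto had 285, 211, 200.4 and 687 CPM, with a log2 change of -0.51 within A and 1.70 within B. The BMP antagonist gene chrd had 179.8, 112, 127 and 73.5 CPM. The homeobox gene gsc, of the organizer and prechordal plate, had 252, 142, 148 and 84.0 CPM. All 3 overlapped between stages, and noto was high in 50% replicate B alone. Ventral homeobox and BMP genes gave 5 of 13 higher and 0 lower, with a median of 0.42 (3 and 0 without TMM scaling, median 0.24). The homeobox gene eve1 of the ventral margin had 481, 581, 757 and 897 CPM (0.64 ± 0.31, with 0.66 within A and 0.63 within B). The BMP pathway inhibitor bambia had 404, 401, 660.3 and 551 CPM (0.60 ± 0.31). The other 3 were the ligand gene bmp7a, the inhibitory smad6a and the BMP target id3. The ventral repressor genes ved and vox had 1410.3, 2410.2, 2309 and 3484 CPM and 396, 678, 419.8 and 1684 CPM, with overlap in both.

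Among the Nodal genes, 0 of 12 were higher and 3 were lower, with a median of -0.09 (0 and 5 without TMM scaling, median -0.28). The ligand gene gdf3, a maternal partner of Nodal, had 227, 179.9, 116 and 131 CPM (-0.75 ± 0.36), with 0.8%, 0.0%, 0.0% and 0.0% labelled RNA from 169, 57, 48 and 3 UMIs. The Nodal antagonist lft2 had 29.0, 33.9, 18.5 and 15.7 CPM. The Nodal ligand genes ndr1 and ndr2 had 43.2, 32.6, 48.6 and 21.0 CPM and 131, 70.4, 135 and 26.2 CPM. Both ligands overlapped between stages, and smad2, a mediator of the signal, was the remaining lower gene. Of 14 FGF genes, 1 was higher and 1 lower, and the median was 0.14 (1 higher, 2 lower and a median of -0.05 without TMM scaling). The higher one was the ligand gene fgf24, with 38.8, 26.1, 66.3 and 99.7 CPM (1.24 ± 0.44), and the lower one the ligand gene fgf3, with 98.3, 139, 94.8 and 47.2 CPM. Of 12 Wnt genes, the receptor genes fzd7a and fzd7b were higher and fzd8b was lower (median 0.31), and without TMM scaling 1 was higher and 1 lower. Among all annotated types fzd8b was highest in the prechordal plate (1138 CPM without TMM scaling, against 21.5 in Notochord). The Wnt ligand gene wnt11f2 had 566, 830.3, 574 and 1159.6 CPM, with overlap. The genes wnt8a, tcf7, fgf8b and gfi1aa were not analysed here.

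Of the Cdx, Hox and retinoic acid genes, 3 of 12 passed the filter, and 2 were higher (median 0.85). The retinoic acid synthesis gene aldh1a2 had 16.2, 22.2, 69.0 and 42.0 CPM (1.68 ± 0.46). The posterior homeobox gene cdx4 had 175, 419.7, 494 and 577 CPM (0.85 ± 0.40). The retinoic acid degrading gene cyp26a1 had 142, 319, 185 and 173 CPM, with overlap. Of 20 internalization and migration genes, 9 were higher and 1 was lower, with a median of 0.53, and without TMM scaling 7 were higher and 1 lower. The 9 were aplnra, snai1a, cxcl12a, cxcl12b, cxcr4b, has2, rhov, tpbga and myl12.1. The chemokine gene cxcl12a had 87.0, 125, 161 and 199 CPM (0.75 ± 0.37), and cxcr4b, of the receptor family for such ligands, had 281, 293, 306 and 535 CPM. The stages of cxcr4b overlapped without TMM scaling. The hyaluronan synthase gene has2 had 12.8, 13.0, 24.3 and 21.0 CPM. The lower one was the epithelial cadherin gene cdh1, with 319.9, 296, 237 and 231 CPM (-0.40 ± 0.33).

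Maternal genes, whose RNA the egg supplies, gave 0 of 12 higher and 2 lower, with a median of -0.37 (0 and 5 without TMM scaling, median -0.56). The cyclin gene ccna1 had 340.0, 289, 199.7 and 157 CPM (-0.79 ± 0.34), and the other lower one was btg4. The linker histone gene h1m had 901, 757, 479.5 and 1254 CPM, with overlap. Of the 3 maternal genome activators (median -0.44), nanog had 391, 319, 188 and 220.4 CPM (-0.82 ± 0.34), and pou5f3 had 1159.7, 1027, 1393 and 1301 CPM (0.30 ± 0.29). Both 50% libraries were thus below the 30% libraries for nanog and above them for pou5f3, which overlapped without TMM scaling, and sox19b overlapped.

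**Figure D3:**
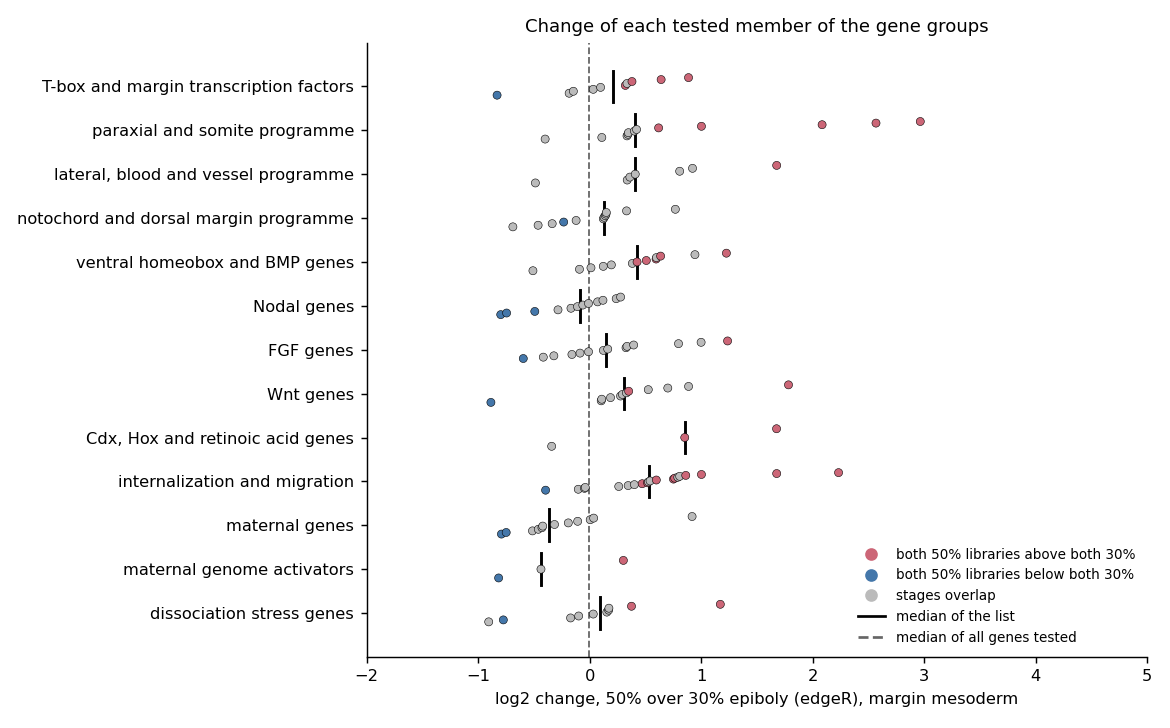
Log2 change between stages (50% over 30% epiboly, edgeR) of each tested member of the gene groups in the margin mesoderm. Each point is 1 gene, the black bar is the group's median and the dashed line the median of all 6630 genes (-0.01). In the internalization and migration group 9 of 20 genes were higher at 50% without overlap (7 without TMM scaling), and in the Nodal group 0 of 12 were.

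Markers of other cells within the mesoderm sums moved with the stage in part. The summed level of the 7 neural ectoderm markers was 1337 to 1509 CPM at 30% and 1796 to 1983 CPM at 50%, with 3 of 6 tested members higher. The 6 apoptotic-like markers had 412 to 469 CPM and 609 to 622 CPM (1 of 3 higher), and the 6 markers of non-neural ectoderm 62.4 to 65.2 CPM and 73.2 to 84.0 CPM (0 of 4). The 6 germ cell markers had 583 to 779.5 CPM and 492 to 509 CPM (1 of 5 lower). In these 4 lists the summed levels of the stages did not overlap, but those of non-neural ectoderm overlapped without TMM scaling. In the other cells the neural ectoderm markers summed to 2725 and 2481 CPM at 30% and to 4277 and 4713 CPM at 50%. Counts of members are to be read against 17.7% (higher) and 20.0% (lower) of all genes. The summed levels in the mesoderm overlapped for the enveloping layer (100.4 to 254 CPM and 57.7 to 319 CPM), the prechordal plate (464 to 797 CPM and 498 to 693 CPM), the endoderm (209.9 to 371 CPM and 231 to 369.7 CPM, with sox17 at 0) and the yolk syncytial layer (3414 to 4115 CPM and 2844 to 3781 CPM, nearly all ctsla, with hnf4a at 0). The dissociation stress genes summed to 6553 to 8302 CPM and 10499.7 to 10798 CPM, chiefly hspa8 and hspb1, and 2 of 10 tested members were higher and 1 lower (median 0.09, -0.10 without TMM scaling). The stages of this sum did not overlap either. In the other cells it was 7683 and 5967 CPM at 30% and 10905 and 9095 CPM at 50%. The part of these markers in the differences above was not tested. The lists of markers used for the types themselves gave 3 of 12 higher and 1 lower (Muscle Blood), 4 of 11 higher (Ventral Margin), and 1 of 9 higher and 1 lower (Notochord).

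The same comparison was made in each type alone. By edgeR, 0 genes passed the threshold in Muscle Blood (of 2698 tested, 129 with unadjusted p below 0.05), Ventral Margin (of 5071, 183) or Notochord (of 4012, 164), and DESeq2 called 0 in each (29, 51 and 54 below an unadjusted 0.05). A block for letter A or B gave 1, 0 and 0 calls by edgeR. Of the genes tested, those with an unadjusted p below 0.05 made up 2.85% (higher) and 1.93% (lower) in Muscle Blood, 1.64% and 1.97% in Ventral Margin, and 2.32% and 1.77% in Notochord. Without 50% replicate A the counts of calls were 11, 41 and 27, and without 50% replicate B they were 1, 3 and 16. Without 30% replicate A they were 2, 0 and 0, and without 30% replicate B 0, 1 and 0. In 50% replicate B, Muscle Blood was 12 cells with 30025 UMIs. Stages without overlap were found for 17.4% (higher) and 24.0% (lower) of genes in Muscle Blood, 15.0% and 20.6% in Ventral Margin, and 16.8% and 19.9% in Notochord.

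The presomitic genes had nearly all their UMIs in Muscle Blood. In these cells mespaa had 27.8, 95.2, 149 and 706 CPM, and msgn1 had 67.5, 176, 260.0 and 571 CPM. In Ventral Margin and Notochord, mespaa had at most 4 UMIs and msgn1 at most 8 in any library. The receptor gene fzd7a was higher without overlap in all 3 types, with log2 changes of 1.42 ± 0.49 in Muscle Blood, 1.54 ± 0.65 in Ventral Margin and 1.04 ± 0.53 in Notochord. The same held for aplnra (1.25, 0.67 and 1.50), hes6 (0.69, 0.59 and 1.20) and hspb1 (1.30, 0.88 and 1.26). The 3 types make up the sum in which fzd7a, aplnra and hspb1 were picked, so this agreement is not independent of that choice. The share of all genes higher in all 3 types was not counted.

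Within the Notochord type, 4 of 12 tested dorsal genes were higher without overlap and 0 were lower, against 16.8% and 19.9% of all genes tested in it. There noto had 627, 591, 924 and 1751 CPM (1.10 ± 0.37). The gene tbxta, of the margin transcription factors and not of the dorsal list, had 758, 1210.2, 1726 and 1798 CPM in Notochord (0.85 ± 0.35). The study named its clusters by markers that include noto and tbxta, so these levels are not independent of how the cells were assigned. The ligand gene fgf8a had 137, 114, 215 and 344 CPM in Notochord, but 314, 183, 158 and 33.6 CPM in Muscle Blood and 108, 64.1, 60.8 and 39.0 CPM in Ventral Margin. So fgf8a was higher at 50% in the dorsal type and lower in the other 2 types. In 50% replicate B, however, 1 UMI was worth 33.6 CPM in Muscle Blood and 9.75 CPM in Ventral Margin. The levels of fgf8a in these 2 types there rest on few UMIs. Stages apart in opposite directions in 2 types were found for 2.52% of the 3969 genes compared. The LIM homeobox gene lhx1a had 58.2, 39.8, 121 and 125 CPM in Notochord against 254, 329.6, 235 and 101 CPM in Muscle Blood. The last of these levels is the worth of 3 UMIs. The chemokine gene cxcl12a had 187, 219.7, 331 and 739.5 CPM in Muscle Blood and 44.3, 39.8, 25.9 and 0 CPM in Notochord, where 0 UMIs in 50% replicate B allow up to 46.9 CPM. The stages of cxcl12a were thus apart in Muscle Blood and not shown to be apart in Notochord. No difference between types was tested. The homeobox gene mixl1 was lower in Muscle Blood (1119, 1458, 703 and 168 CPM) and Ventral Margin (629, 465, 263 and 185 CPM), and overlapped in Notochord. The activator gene nanog was lower in the same types, with log2 changes of -1.20 ± 0.46 and -1.29 ± 0.37, and overlapped in Notochord.

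**Figure D4:**
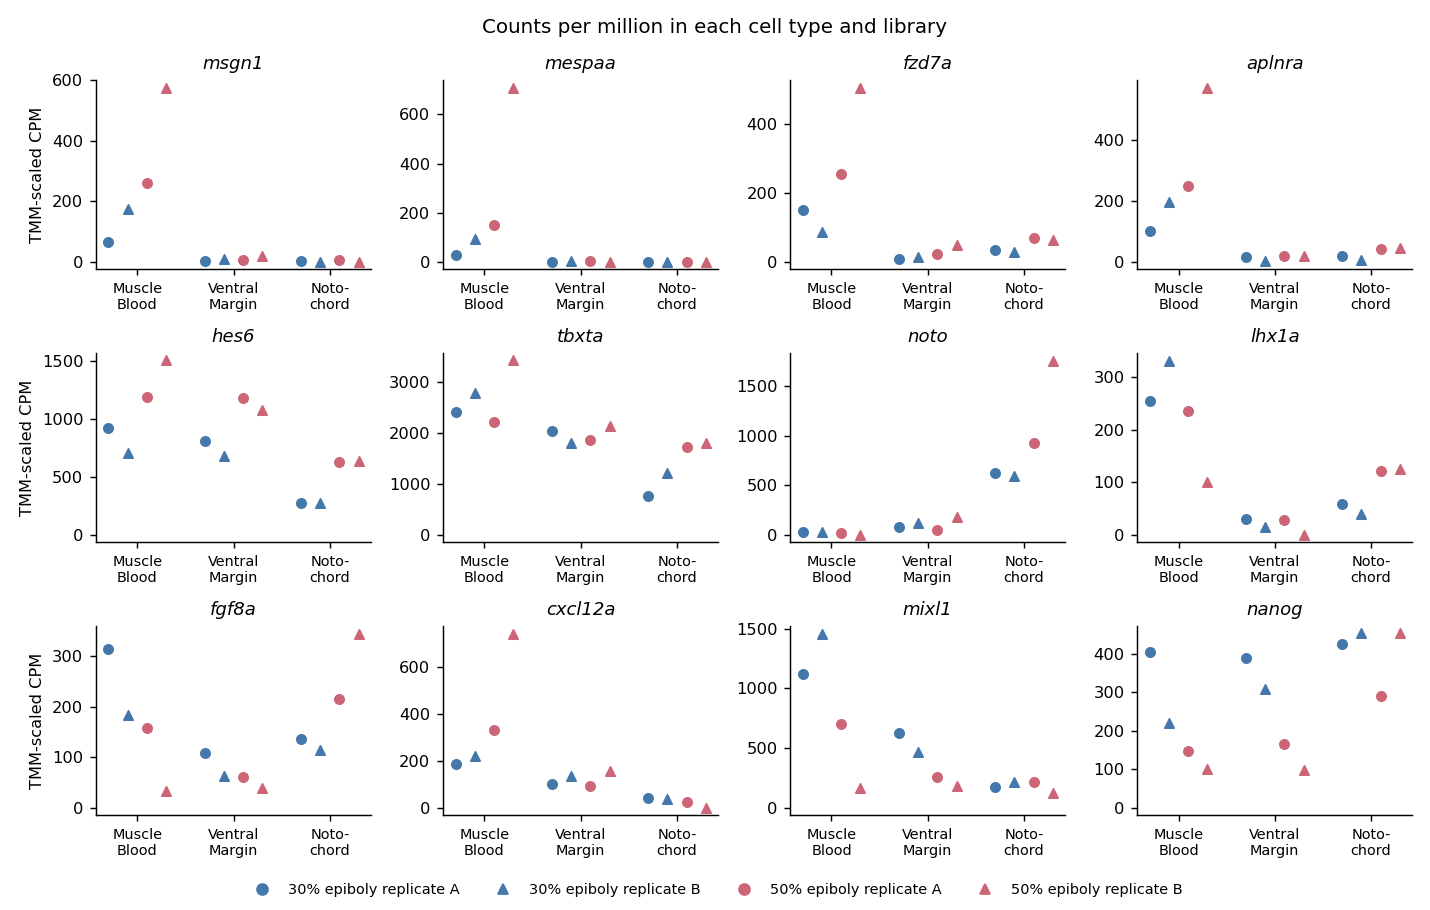
Levels in TMM-scaled CPM of genes in each of the 3 cell types, one panel a gene. Each point is 1 library. The presomitic genes had their level in Muscle Blood, and fgf8a was higher at 50% epiboly in Notochord (215 to 344 against 114 to 137 CPM) and lower in Muscle Blood (33.6 to 158 against 183 to 314 CPM). In Muscle Blood of 50% replicate B, 33.6 CPM is the worth of 1 UMI.

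Whether the mesoderm changed differently from the rest of the embryo was tested on 2 sums per library, mesoderm and other cells. Of 8687 genes, 28 (0.322%) passed 5% false discovery by edgeR, 7 (0.0806%) with a higher and 21 (0.242%) with a lower change in the mesoderm, and 311 had an unadjusted p below 0.05. DESeq2 called 0, with 31 below an unadjusted 0.05. Leaving out 30% replicate A, 30% replicate B, 50% replicate A or 50% replicate B gave 13, 16, 7 and 32 calls, of which 5, 13, 3 and 24 were among the 28. The prior degrees of freedom of the fit were infinite (biological coefficient of variation 0.0459, against 0.267 between the mesoderm sums). Its p-values, and the SEs given as ± for its genes, thus rest on a spread common to all genes. They do not measure how far the libraries of a single gene lie apart. The cells were also assigned to types by their expression of such genes, so these p-values are not independent of how the mesoderm was defined. In 21 of the 28 genes the ratio of mesoderm to other cells did not overlap between stages, against 14.8% (higher) and 17.6% (lower) of all genes tested, and 24 moved the same way within A and within B. The 28 were called on the change of this same ratio, so neither count is independent of the calls.

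The genes named here are the 5 of lowest p in each direction among those without overlap, and values are log2 ratios of mesoderm to other cells of the same library. Each of the 10 calls was lost with DESeq2 and when 50% replicate A was left out, and 8 of the 10 also without 30% replicate A. For aplnra the ratio was -1.66, -0.28, 0.26 and 1.33, a difference of 1.62 ± 0.25 (edgeR adjusted p = 4.95e-07), and the difference was 0.63 without 30% replicate A and 2.58 without 50% replicate A. For aplnrb it was 1.04, -0.41, 1.40 and 1.42 (0.98 ± 0.23, edgeR adjusted p = 0.00752), and the difference was 0.35 without 30% replicate B and 0.51 with the replicate letter as a block, which ended the call. The RNA-binding gene rbm38 had 0.02, 0.05, 1.38 and 1.23 (1.35 ± 0.29, edgeR adjusted p = 0.00198). For rbm38 the letters were close at each stage. The gene ddit4, of an inhibitor of mTOR signalling, had 0.89, 1.27, 1.51 and 1.36 (0.42 ± 0.10), and 0.17 without 30% replicate A. The gene FP102169.1 had 1.29, 1.38, 2.26 and 1.56 (0.90 ± 0.22), and 0.28 without 50% replicate A, and its call was also lost with the block (edgeR adjusted p = 0.11).

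Among the 21 genes with a lower change in the mesoderm were 5 of the 12 notochord and dorsal genes tested, against 0.242% of all genes. They were gsc, admp, chrd, foxd3 and rasgef1ba. This list was chosen with earlier results of these data known, and the study named its clusters by markers that include gsc and chrd. The count is thus a description only. For gsc the ratio was 1.40, -0.63, -0.66 and -0.67, so 30% replicate A alone stood apart. Its difference of -1.28 ± 0.16 was -0.07 without that library, and the call was lost with robust dispersion estimates. For admp, a BMP-like ligand of the dorsal side, the ratio was 1.62, 0.40, 0.04 and 0.39 (-1.20 ± 0.16), with a difference of -0.37 without 30% replicate A. For rasgef1ba, of an exchange factor for Ras-type GTPases, it was 1.94, 1.83, 0.99 and 1.64 (-0.83 ± 0.15), with -0.24 without 50% replicate A. For the ligand gene apela it was 1.25, 1.38, 0.60 and 0.01 (-0.76 ± 0.15, edgeR adjusted p = 0.00033), with -1.29 without 50% replicate A. For shisa2a, of a family that restrains Wnt and FGF receptors in Xenopus, it was -0.78, -1.52, -1.75 and -1.97 (-0.83 ± 0.16), with -0.29 without 30% replicate A. The receptor gene aplnra and its ligand gene apela thus stood on opposite sides of this comparison. In the other cells, the 7 prechordal plate markers summed to 772, 753, 1280.1 and 808 CPM. The part of that cell type in the dorsal calls was not tested. Notochord cells made up 36.5%, 22.8%, 19.9% and 29.9% of the mesoderm, most in 30% replicate A. The part of this mix of types in the calls was not tested either.

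**Figure D5:**
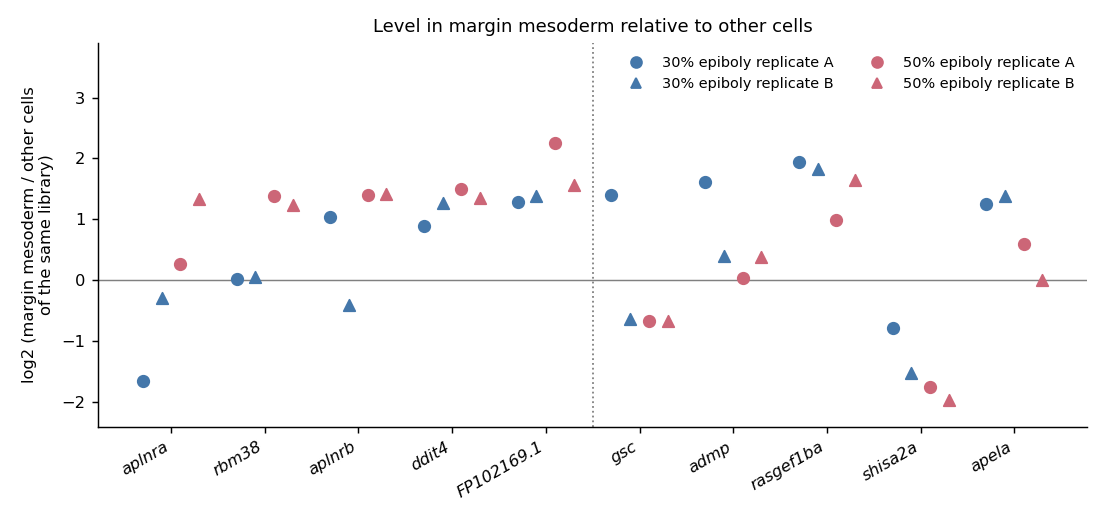
Log2 ratio of the level in margin mesoderm to that in all other cells of the same library, for the 10 named genes. Each point is 1 library. For rbm38 the 30% libraries lay at 0.02 and 0.05 and the 50% libraries at 1.38 and 1.23, while for gsc 30% replicate A (1.40) lay apart from the other 3.

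Levels were last split into maternal (unlabelled) and zygotic (labelled) expression, for 512 genes with 30 or more UMIs behind the labelled fraction in every library. Maternal expression of 1 gene (0.195%) passed the threshold in limma, and 16 genes had an unadjusted p below 0.05. This was mki67, a gene of proliferating cells, with 839.8, 1185, 539.7 and 183 maternal CPM (log2 change -1.66 ± 0.38, limma adjusted p = 0.00607). Its labelled fraction was 33.1%, 33.5%, 51.8% and 59.4%, from 2059, 1265, 2603 and 36 UMIs, and its zygotic expression was 416, 597, 579.8 and 268 CPM. Both 50% libraries had less maternal mki67 than both 30% libraries, while its zygotic level overlapped. Its total level overlapped with TMM scaling, but without TMM scaling both 50% libraries also lay below both 30% libraries. The call was lost when any 1 library was left out (limma adjusted p from 0.15 to 1.00), and the change was -0.88 without 50% replicate B. In zygotic expression 0 of the 512 genes passed in limma (0.0%), with 19 below an unadjusted 0.05. The median log2 change of the 512 genes was 0.35 in zygotic and 0.00 in maternal expression. Without 50% replicate A both were 0.19, and without 50% replicate B, over 1233 genes, they were 0.51 and -0.29.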

How the data were processed

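The authors deposited a table of UMI counts per gene and cell, a table of the labelled fraction (0 to 1) per gene and cell estimated by GRAND-SLAM, and a cell table with cell types and a pseudotime score. Drop-seq reads were aligned by the authors with Bowtie2 to a base-converted genome, and cells with 500 or more genes were kept, though 2 mesoderm cells hold fewer in the deposited table. No doublet caller is named there for these cells and none was run here. The study's methods name Zv10 for the expression matrix and GRCz11 for the labelled fraction, and the build behind the count table was not given in the sources used here. The authors saw cells separate by dissociation method and by IAA, and left the genes behind this out of their clustering. Left out were 8 other columns of that cell table and the 1855 cells named for the dome stage, whose replicate letter differs from that of the labelled dome library.

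Counts were summed per library over the cells of each set, since the library is the replicate. The study calls the 2 libraries of a stage biological replicates from separately collected embryos, but they also differed in dissociation, so p-values measure a spread that includes this technical part. Same-letter libraries share a dissociation method if the letters follow the replicates, which no label states, and their deviations from the stage means correlated at r = 0.134 over 6630 genes. Sums were tested with edgeR 4.0.16 in R 4.3.3 (TMM scaling, filterByExpr, quasi-likelihood F test, Benjamini-Hochberg over all genes tested, threshold 0.05), with DESeq2 1.42.0 as the alternative. The difference from other cells was an interaction of stage and cell set with library as a term. The labelled fraction was taken where a gene had at least 3 UMIs in a cell, over the 9042 genes with at least 50 UMIs in the 4 epiboly libraries. Maternal and zygotic expression, which are CPM without TMM scaling times the unlabelled and labelled fraction, were tested with limma 3.58.1 (trend) on log2(CPM + 1), and their fold changes are on that scale. Shares and fractions were compared by exact permutation tests (scipy 1.17.1), and intervals and floors (3 counts) cover counting error only. The count fits were tested on simulated data.

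The genes named are the 10 of lowest p in each direction among genes whose stages did not overlap, 5 in each direction in the interaction test, any gene called in maternal or zygotic expression, and members of the lists. Alternatives were no TMM scaling, no filter, DESeq2, the replicate letter as a block, each library left out, fewer cells or UMIs, other pseudocounts and minimums and, chosen after seeing the data, robust dispersion estimates. Gene lists covered margin transcription factors, paraxial, lateral and dorsal mesoderm, BMP, Nodal, FGF, Wnt and retinoic acid genes, migration, maternal and stress genes, and cell type markers. The 13 mitochondrial transcripts listed were not analysed here, nor were wnt8a, tcf7, fgf8b, gfi1aa, cdx1b, hoxd4a, dhrs3a and egr1. The members and lists were chosen with earlier results of these data known. The 4 reporter RNAs held 0.377% of mesoderm UMIs and were left out.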

Additional observations from a re-analysis of the deposited data

Results flagged for a closer look

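The change between stages differed between margin mesoderm and the other cells by an interaction test in edgeR for 28 genes, but DESeq2 called 0. The edgeR calls also depended on single libraries, as given above. Among the named ones, the log2 difference of the change (mesoderm minus other cells) was 1.62 for aplnra, 1.35 for rbm38, 0.98 for aplnrb, 0.42 for ddit4 and 0.90 for FP102169.1. It was -1.28 for gsc, -1.20 for admp, -0.83 for rasgef1ba, -0.83 for shisa2a and -0.76 for apela. Without 30% replicate A the difference for gsc was -0.07.

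In 9 genes of the lists the libraries of the 2 stages were apart in opposite directions in different cell types. This difference between types was not tested. Of 3969 genes, 100 showed it (2.52%), or 94 with libraries of 0 UMIs set to a floor of 3 UMIs. The list genes compared were not counted, so the 9 cannot be set against that share. In 50% replicate B, 1 UMI was worth 33.6 CPM in Muscle Blood, 9.75 CPM in Ventral Margin and 15.6 CPM in Notochord. Changes of genes of low level thus rest on few UMIs there, fgf8a and lhx1a in Muscle Blood among them. The log2 change of lhx1a was -0.51 in Muscle Blood and 1.23 in Notochord. For fgf8a it was -0.91 in Muscle Blood, -0.67 in Ventral Margin and 1.05 in Notochord, and for arl4ab, a small GTPase gene, -1.33, -0.997 and 0.45 in the same order, although 0 UMIs of arl4ab in Muscle Blood of 50% replicate B allow up to 100.8 CPM, above both 30% libraries. For xbp1 it was -0.64 in Ventral Margin and 0.60 in Notochord, and for cxcr4b 0.90 and -0.31. For smad7 it was -1.11 in Muscle Blood and 0.15 in Ventral Margin, and for tpbga -0.18 and 0.80. For gadd45ba it was -0.33 in Muscle Blood and 0.54 in Notochord. For cxcl12a it was 1.20 and -1.01, but 0 UMIs in Notochord of 50% replicate B allow up to 46.9 CPM, above both 30% libraries, so its stages are not shown to be apart in that type.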

How the results depend on the processing

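Depth limits the comparison most in 50% replicate B, where 3 UMIs are worth 15.7 CPM. Calls in total counts of the mesoderm numbered 0 in edgeR, 2 with no filter on low counts, and 1 to 84 when a library was left out. Leaving out a library gave 0 to 11 in Muscle Blood, 0 to 41 in Ventral Margin (1 with no filter) and 0 to 27 in Notochord. Calls in the change relative to other cells (28) numbered 0 with DESeq2 and 7 to 32 with a library left out. The 1 maternal call was lost (0 calls) with 10 UMIs or no minimum behind the labelled fraction and with any library left out. The labelled fraction difference ranged from -1.56 to 14.7 points with a library left out, and the share difference from 5.71 to 8.86. Stages overlapped in the labelled fraction with 3 or more UMIs per gene and cell, but not with 1 or more or exactly 3. Log2 changes turned sign for tbx16 (-0.079 to 0.74), noto (-0.29 to 1.44) and osr1 (-0.10 to 0.60) with a library left out, and without Notochord cells for noto (-0.19) and chrd (0.50). Of 309 values of 27 genes in total counts, 286 kept their direction and side of the threshold, 18 newly passed it and 5 changed sign. Of 90 values of 10 genes relative to other cells, 55 kept their call and 35 lost it. The cause was not tested.

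With the letter as a replicate block, 1 gene was called in the mesoderm (mespaa, log2 3.18, edgeR adjusted p = 0.00902). The block gave 1 call in Muscle Blood and 24 relative to other cells (22 of the 28). The labelled fraction and share differences stay at 6.59 and 7.28 points by arithmetic, since each letter has 1 library per stage. The block ended the calls of aplnrb and FP102169.1 relative to other cells and altered no other call of a named gene.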
